A study of Mus musculus with 10 samples.

Results

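The 10 genes described here encode the AP-1 transcription factors of the Fos and Jun families and the small Maf proteins, and their RNA was measured in mouse lung tumours with and without the glucose transporter Glut1. The genes were Fos, Fosb, Fosl1 and Fosl2, Jun, Junb and Jund, and Maff, Mafg and Mafk. They were taken by symbol from a count table of 39017 genes, and all 10 passed the filter on low counts that left 16216 genes for testing. Mafg stood in the table under a pair of gene identifiers, of which one had no count in any library and was not used. The genes were selected on their measured difference between the genotypes, since an earlier look at these libraries found them lower in the Glut1-deficient tumours. Their differences between the genotypes are therefore a description, and where the count of them called by the fit over all genes is given, it is no independent test. The slope of each gene over the sample number in the labels was not used to pick them and was tested.

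RNA sequencing covered 10 libraries, 5 labelled KP and 5 labelled KPG1, all from male C57BL/6 mice. KP mice develop lung adenocarcinoma once Cre recombinase reaches the airways, and the engineered alleles that start the tumours, shared by both groups, are not reported here. KPG1 mice were in addition homozygous for a floxed Slc2a1, the gene of Glut1. For the KP controls one label gives a heterozygous floxed Slc2a1 and another gives wild type. In both groups Cre was expressed from the surfactant protein C (SPC) promoter of an adenovirus (Ad5SPC-Cre), so that deletion was driven in SPC-expressing cells and their descendants and not in every cell of a tumour. At 18 weeks and 6 days after initiation the tumours were dissected from the lung, dissociated to single cells and depleted of CD45-positive leukocytes on magnetic beads before RNA extraction. The labels do not say whether the libraries came from separate animals, so p-values measure only the spread between these samples. In such bulk samples fewer cells of a type and less RNA per cell cannot be told apart.

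Fos and Jun proteins bind DNA as dimers through a basic leucine zipper. Most of their genes are immediate-early genes, whose transcription rises within minutes of growth factor, stress or mechanical stimulation, without new protein synthesis, and the RNA is short-lived. Small Maf proteins have the same kind of DNA-binding zipper but no transactivation domain, and pair with each other or with partners such as NRF2 and the Bach repressors. AP-1 genes are also known to be induced while a tissue is being dissociated.

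Each title carried a sample number, which is the possible order of handling, although the labels do not say what it counts. KP 1 to 5 carried numbers 11, 12, 15, 16 and 6, and KPG1 1 to 5 carried numbers 10, 1, 4, 5 and 9. The mean number was 12 in KP and 5.8 in KPG1, so genotype and number are largely confounded and are separated only by how the numbers vary inside each group.

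Depth ranged from 32427029 to 49534284 counts per library, with between 20886 and 22583 genes holding a count. Slc2a1 lay between 71.7 and 127 CPM (counts scaled to the library size after TMM adjustment) in KP and between 40.8 and 66.8 CPM in KPG1, without overlap. Mean log2 CPM was thus -1.01 apart (KPG1 minus KP), with a two-sided exact permutation p of 0.00794 over 252 rearrangements, the smallest that this design allows. The 8 alveolar type 2 markers, which include Sftpc, summed to between 17678 and 56472 CPM in KP and between 43142 and 79793 CPM in KPG1. Alveolar type 2 RNA was thus seen in every library, which does not trace the cells that started the tumours. The 13 leukocyte markers in the table, Ptprc (CD45) among them, summed to between 44.1 and 72.8 CPM in KP and between 30.5 and 54.4 CPM in KPG1. KP 5 stood apart for several of the genes below and was the deepest library.

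The DNA just upstream of the start site is shown for 4 of the genes, because these stretches hold the short motifs through which AP-1, CREB and ATF proteins are known to act on such promoters. The sequences are the 250 bases before the annotated start, from RefSeq on the build GRCm38.p6, whose coordinates are those of mm10, written 5′ to 3′ on the strand of the gene. Capitals mark TGACG, TGACGTCA, TGACATCA, TTACCTCA and TATAAA, searched on both strands. Fos lies on the plus strand at chr12:85473640-85473889, Fosb on the minus strand at chr7:19310046-19310295, Jun on the minus strand at chr4:95052223-95052472, and the Maff window on the plus strand at chr15:79347270-79347519, which lies inside the annotated Maff gene and outside its exons.
Fos: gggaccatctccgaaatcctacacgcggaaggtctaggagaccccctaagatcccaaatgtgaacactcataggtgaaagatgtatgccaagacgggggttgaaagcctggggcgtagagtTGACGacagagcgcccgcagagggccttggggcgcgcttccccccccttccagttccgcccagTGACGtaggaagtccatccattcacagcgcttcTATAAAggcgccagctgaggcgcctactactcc
Fosb: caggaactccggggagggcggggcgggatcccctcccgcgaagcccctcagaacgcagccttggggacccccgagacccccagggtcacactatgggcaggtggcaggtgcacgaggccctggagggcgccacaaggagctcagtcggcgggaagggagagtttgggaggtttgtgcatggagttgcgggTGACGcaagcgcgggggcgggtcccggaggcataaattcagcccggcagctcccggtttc
Jun: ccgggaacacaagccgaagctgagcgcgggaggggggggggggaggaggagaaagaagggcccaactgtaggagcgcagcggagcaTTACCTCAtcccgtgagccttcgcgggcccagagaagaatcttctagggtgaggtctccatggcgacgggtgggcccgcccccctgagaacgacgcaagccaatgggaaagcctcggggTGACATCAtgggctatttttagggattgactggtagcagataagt
Maff: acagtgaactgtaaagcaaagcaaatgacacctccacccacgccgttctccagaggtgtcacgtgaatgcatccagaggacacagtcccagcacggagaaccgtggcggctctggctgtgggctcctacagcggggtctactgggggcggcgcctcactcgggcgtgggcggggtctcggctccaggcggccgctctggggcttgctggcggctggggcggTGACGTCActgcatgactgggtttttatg

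In Fos the TATAAA match began 33 bases before the start, and TGACG matches began 66 and 129 bases before it. The Fosb window held 1 TGACG match, 60 bases before the start, and its last 6 bases lie in an exon of the GENCODE annotation. Jun held TGACATCA at 45 bases and TTACCTCA at 164 bases, the forms known as the AP-1-like elements of this promoter. In the Maff window shown, the palindrome TGACGTCA, the full cyclic AMP response element, began 29 bases before that start. The Maff window just before the annotated gene start, chr15:79346371-79346620, held no TGACG or TGACGTCA match. The window at chr15:79348152-79348401 held TGACATCA at 45 bases and TGACG on the other strand at 122 bases, and no TGACGTCA.

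Over all 10 genes, RefSeq windows were found for 9, in 11 windows, and Fosl1 had none in the table. TGACG, which is also part of TGACGTCA, was present in 7 of the 11 windows and in 17.8% of all 32851 windows of this length. TGACGTCA was in 1 of the 11 and 1.55% of all, TGACATCA in 2 and 2.93%, TTACCTCA in 1 and 0.728%, and TATAAA in 1 and 12.4%. The consensus AP-1 site TGACTCA was in 0 of the 11 windows and 4.46% of all, and the CArG box bound by serum response factor was in 0 and 1.47%. The small Maf motif TGACNNNGC was in 3 of the 11 windows and 10.2% of all. TGACG, TGACATCA and TTACCTCA were chosen after the windows had been read, and a match is a description of letters in this window. A count of 0 likewise covers only the 250 bases before the start, and sites farther upstream were not searched.

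All 10 genes had a lower fitted mean in KPG1 than in KP. Their median log2 fold change was -0.85, while the median of all genes tested was 0.02. Below 0 lay 47.3% of all genes tested. For 5 of the 10, Fos, Fosb, Fosl2, Maff and Mafk, every KPG1 tumour lay below every KP tumour, a pattern shown by 1.76% of all genes. Fosb and Maff passed an adjusted p of 0.05 in limma, beside 0.111% of all genes called lower and 0.173% called in either direction. These counts restate how the genes were picked. In limma 0 of the 10 were called without KP 1, KP 3, KP 4, KPG1 2, KPG1 3 or KPG1 4 in turn, and 1 was called without KP 2, KPG1 1 or KPG1 5, in fits that called between 5 and 27 genes in all. Without KP 5, 5 of the 10 were called and so were 250 of all 16216 genes, against 28 with it. Without KP 5, 8 of the 10 genes had groups that did not overlap, beside 4.24% of all genes, an alternative chosen after seeing the data.

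**Figure D1:**
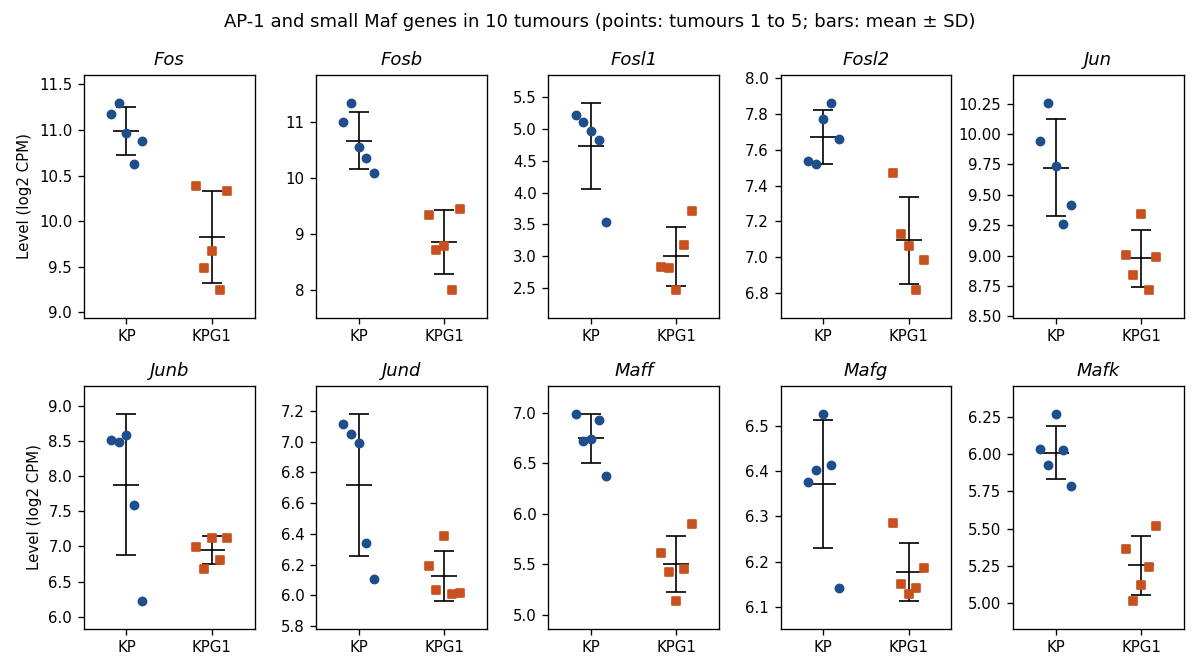
Level of each gene in log2 CPM (vertical axes, scaled per gene) in the 5 KP tumours (circles) and 5 KPG1 tumours (squares), left to right as tumours 1 to 5, with bars for the mean ± SD. The groups do not overlap for Fos, Fosb, Fosl2, Maff and Mafk, and KP 5 is the lowest KP tumour for 7 of the 10 genes.

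Fos, the founding member of the family and the partner of Jun in the classical AP-1 dimer, is encoded at chr12:85473890-85477273 on the plus strand. It stood at 11.17, 11.30, 10.96, 10.62 and 10.88 log2 CPM in KP 1 to 5, and at 10.39, 9.49, 9.67, 9.25 and 10.33 in KPG1 1 to 5. The lowest KP tumour lay above the highest KPG1 tumour, and inside KPG1 tumours 1 and 5 lay well above the other 3. KP averaged 2058 ± 367 CPM (SD, n = 5) and KPG1 averaged 954 ± 336 CPM (SD, n = 5), which is 46.4% of KP, and the log2 fold change was -1.17 ± 0.24 (SE).

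Fosb, a close relative of Fos that also yields a truncated splice form, is encoded at chr7:19302696-19310051 on the minus strand. In KP 1 to 5 it stood at 11.004, 11.35, 10.56, 10.37 and 10.09 log2 CPM, against 9.34, 8.71, 8.79, 8.01 and 9.45 in KPG1 1 to 5. The groups were separated by 0.65 log2 units between KP 5 and KPG1 5, and KPG1 4 was the lowest of all. With a log2 fold change of -1.82 ± 0.30 (SE), KPG1 held 28.8% of the mean CPM of KP, the smallest share among the 10 genes. Splice forms were not told apart by counts per gene.

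Fosl1, which encodes Fra-1, a Fos protein without a strong transactivation domain, lies at chr19:5447547-5455946 on the plus strand and was the scarcest of the 10. Its levels were 5.23, 5.10, 4.96, 4.82 and 3.54 log2 CPM in KP 1 to 5 and 2.83, 2.81, 2.47, 3.17 and 3.71 in KPG1 1 to 5, from between 243 and 1549 counts per library. KP 1 to 4 lay above every KPG1 tumour, and KP 5 lay among them, below KPG1 5. The log2 fold change was -1.74 ± 0.36 (SE), and -2.05 without KP 5.

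Fosl2, which encodes Fra-2, lies at chr5:32135801-32157842 on the plus strand. It ranged from 7.52 to 7.86 log2 CPM in KP and from 6.82 to 7.47 in KPG1. The groups did not overlap, but KPG1 1 came within 0.05 log2 units of KP 2. The log2 fold change was -0.58 ± 0.14 (SE).

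Jun, the chief dimer partner of the Fos proteins, is encoded by a gene without introns at chr4:95049034-95052222 on the minus strand. It stood at 9.94, 10.26, 9.74, 9.26 and 9.41 log2 CPM in KP 1 to 5 and at 9.01, 8.84, 9.34, 8.72 and 8.99 in KPG1 1 to 5. The groups overlapped, since KPG1 3 lay above KP 4. The log2 fold change was -0.75 ± 0.20 (SE). An antisense gene, Junos, overlaps Jun and held at most 574 counts in a library, and the strand setting of the counting is not given in the sources used here.

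Junb, a Jun protein known to restrain as well as replace Jun, is encoded at chr8:84974484-84978718 on the minus strand. In KP 1 to 5 it stood at 8.51, 8.48, 8.58, 7.58 and 6.23 log2 CPM, against 6.99, 6.68, 7.12, 6.81 and 7.12 in KPG1 1 to 5. KP 1 to 4 lay above all KPG1 tumours and KP 5 lay below all of them, so that the SD was 1.01 in KP and 0.20 in KPG1. The log2 fold change was -0.94 ± 0.39 (SE).

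Jund, the Jun gene usually held at a steady level in resting cells, lies at chr8:70698949-70700616 on the plus strand. It ranged from 6.11 to 7.11 log2 CPM in KP and from 6.01 to 6.38 in KPG1. KP 4 and KP 5 lay within the KPG1 range, while KP 1 to 3 lay above it. The log2 fold change was -0.59 ± 0.20 (SE).

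Maff, a stress- and cytokine-inducible small Maf, is encoded at chr15:79346621-79359076 on the plus strand. It stood at 6.98, 6.72, 6.74, 6.93 and 6.37 log2 CPM in KP 1 to 5 and at 5.61, 5.42, 5.14, 5.46 and 5.90 in KPG1 1 to 5. Every KP tumour lay above every KPG1 tumour, with KP 5 and KPG1 5 nearest to each other. KP averaged 109 ± 17.3 CPM (SD, n = 5) and KPG1 averaged 46.1 ± 9.0 CPM (SD, n = 5), and the log2 fold change was -1.24 ± 0.16 (SE).

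Mafk, a small Maf that pairs with NRF2 and with Bach1, is encoded at chr5:139791513-139802653 on the plus strand. Its levels were 6.04, 5.93, 6.27, 6.03 and 5.79 log2 CPM in KP 1 to 5 and 5.36, 5.02, 5.12, 5.24 and 5.52 in KPG1 1 to 5. The groups did not overlap, with a log2 fold change of -0.76 ± 0.13 (SE). Mafg, the gene that varied least over the 10 tumours, is encoded at chr11:120625117-120633600 on the minus strand and ranged from 6.14 to 6.53 log2 CPM in KP and from 6.13 to 6.29 in KPG1. Its groups overlapped and its log2 fold change was the smallest, at -0.19 ± 0.10 (SE).

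Per kilobase of exon sequence the KP means ordered the genes from Fos at 875 CPM per kb through Fosb at 275 and Jun at 273, Junb at 119, Jund at 65.7 and Maff at 41.9 to Fosl2 at 21.1, Mafk at 16.6 and Mafg at 14.8, with Fosl1 last. Fosb and Jun differed by far less than their spread over tumours. In KPG1 the order was Fos at 406, Jun at 160, Fosb at 79.1, Junb at 53.9, Jund at 42.1, Maff at 17.8, Fosl2 at 14.3, Mafg at 12.9, Mafk at 9.84 and Fosl1 at 4.09. Fosb thus stood below Jun in KPG1 and beside it in KP, and Mafg above Mafk. Overlapping genes were counted apart from Junb (Prdx2, at most 11868 counts), Mafk (Tmem184a, at most 3474) and Mafg (Sirt7, at most 1341). So were those of Fosl1 (Ccdc85b, at most 98) and Jund (Gm11175, at most 34). Reads in stretches shared with a gene on the opposite strand cannot be assigned without the strand setting. Sirt7 lies on the same strand as Mafg, so that setting would not separate their shared reads.

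Summed by family on this scale, the 4 Fos genes gave 1185 ± 249 CPM per kb in KP and 503 ± 173 in KPG1 (each SD, n = 5). The Jun genes gave 458 ± 145 and 256 ± 37.0, and the small Maf genes 73.3 ± 8.95 and 40.5 ± 5.02. The Fos and small Maf sums did not overlap between the groups, and the Jun sums did. Inside the families, Fosb stood at 0.309 ± 0.0637 of Fos in KP and at 0.194 ± 0.0233 in KPG1 (each SD, n = 5), with overlapping ranges of 0.218 to 0.391 and 0.160 to 0.220. Maff made up 56.9% ± 3.23 of the small Maf sum in KP and 43.6% ± 3.31 in KPG1, without overlap. Jun made up 60.8% ± 8.34 of the Jun family in KP and 62.3% ± 1.72 in KPG1. Together the 10 genes took 0.555% ± 0.152 of all counts in KP and 0.246% ± 0.0586 in KPG1, which describes the values that picked them.

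The tumours of a group did not all sit alike. KP 1, 2 and 3 lay above the mean of all 10 tumours for 10 of the 10 genes, KP 4 for 8 and KP 5 for 6. KPG1 1 lay above it for 2 genes and the other 4 KPG1 tumours for 0. KPG1 5 was the highest KPG1 tumour for 5 genes and KPG1 4 the lowest for 5. KP 5 carries number 6, the lowest of the KP numbers, and had the lowest endothelial marker sum of all tumours, 280 CPM against 545 to 918 in the other KP tumours and 420 to 1313 in KPG1. Whether this bears on the level of the 10 genes was not tested.

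Against the sample number, with genotype in the model, the fitted slope was above 0 for all 10 genes, with a median of 0.04 log2 units per number. Slopes above 0 were found for 48.6% of all genes, with a median over all genes of -0.0015. No gene of the 10 passed an adjusted p of 0.05 in limma, and neither did any of the 16216 genes tested, a share of 0%, although 11.9% had an unadjusted p under 0.05. The unadjusted p was under 0.05 for 3 of the 10, Fosl1, Maff and Mafk, all with slopes above 0, beside 5.37% of all genes in that direction. Without KP 5 it was under 0.05 for 0 of the 10. In either direction, 883 of all 16216 genes then had such a p, against 1934 with KP 5. Without KPG1 5 it was also under 0.05 for 0 of the 10, and for 2060 of all genes. DESeq2 called 135 genes over the number, none of them among the 10, and edgeR called 0.

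**Figure D2:**
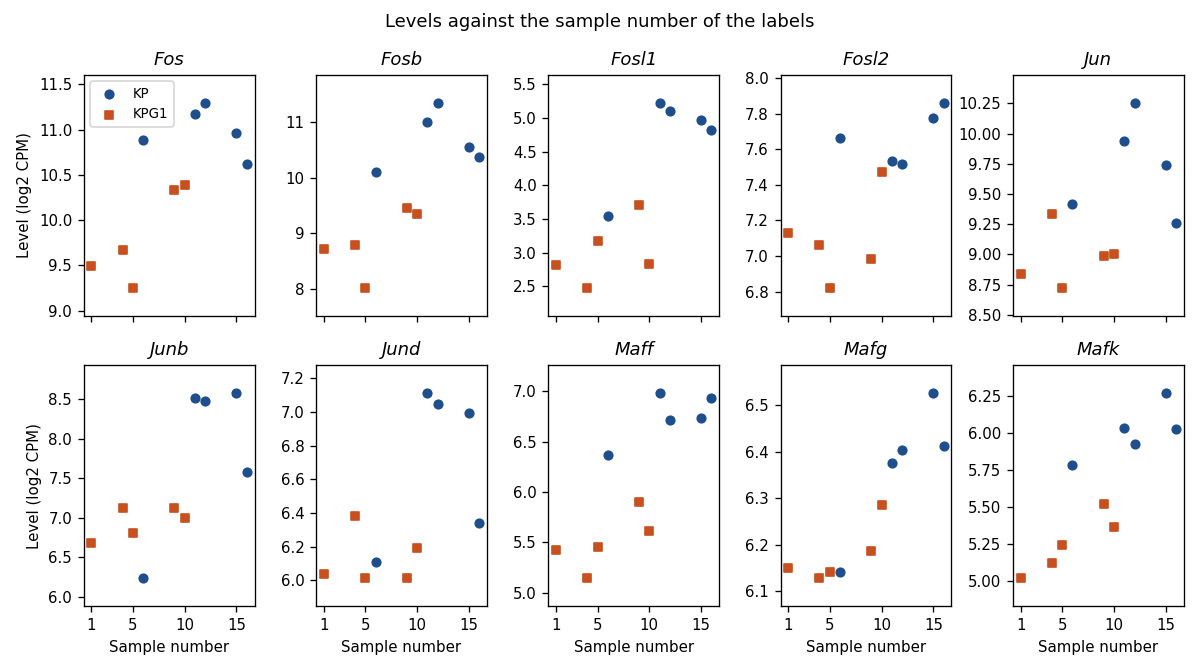
Level of each gene in log2 CPM (vertical axes, scaled per gene) against the sample number in the labels (horizontal axes) for KP (circles) and KPG1 tumours (squares). KPG1 numbers run from 1 to 10 and KP numbers from 6 to 16, and the KP tumour with number 6 lies inside the KPG1 range for Fosl1, Jund and Mafg and below it for Junb.

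The steepest fitted slopes were those of Junb, at 0.10 ± 0.051 (SE) log2 units per number with an adjusted p of 0.447 in limma, and of Fosl1, at 0.10 ± 0.041 with an adjusted p of 0.400. Fosb had a slope of 0.06 ± 0.042, Fos and Maff one of 0.05, and Mafk one of 0.04 ± 0.015. The slope of Jun was 0.0020, the flattest, with an adjusted p of 0.986. Adjusted p-values over the 10 genes ran from 0.369 for Mafk to 0.986 for Jun.

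Fitted inside each group, the slopes of Fosl2 (0.020 log2 units per number in KP and 0.024 in KPG1), Maff (0.044 and 0.051) and Mafk (0.035 and 0.049) were near each other. The slope of Fos was -0.018 in KP and 0.115 in KPG1, where the tumours numbered 9 and 10 averaged 0.89 log2 units above those numbered 1, 4 and 5. Fosb differed between these KPG1 tumours by 0.89 as well, Fosl1 by 0.45, Maff by 0.42 and Mafk by 0.31, against 0.03 for Jun and -0.04 for Jund. Junb showed the reverse arrangement, with 0.164 per number in KP and 0.033 in KPG1, and its KP slope rests on KP 5. The KP slopes of the other genes also depend on KP 5, whose number 6 lies apart from 11 to 16 in the other KP tumours. Slopes inside KP were not refitted without it, so likeness of slopes between the groups may rest on that 1 tumour. Fitted over both groups with genotype in the model, and without KP 5, the slopes of Jun, Junb and Jund were -0.027, -0.0027 and -0.029. In that same fit over both groups the slope of Fosl1 was 0.0081, while Maff had 0.037 and Mafk 0.044. Differences in slope between the groups were not tested.

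Some tumours of the 2 genotypes carried neighbouring numbers. KPG1 tumours 9 and 10 lay below KP tumours 11 and 12 for 10 of the 10 genes, with a median difference of -1.04 log2 units, including -0.88 for Fos, -1.78 for Fosb, -1.44 for Junb and -1.09 for Maff. KPG1 tumours 4 and 5 lay below the KP tumour with number 6 for 8 of the 10, with a median of -0.66. That comparison gave -1.42 for Fos, -1.69 for Fosb and -1.07 for Maff, but 0.74 for Junb and 0.09 for Jund. These differences use the tumours that picked the genes, rest on 1 or 2 tumours a side and have no test. The share of all genes that were lower in the same comparisons was not measured, so the counts have no background beside them.

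With the sample number in the model as a second term, the genotype difference was below 0 for all 10 genes, beside 50.5% of all genes, and its median was -0.62. In this fit 8 genes in all were called, or 0.0493%, and 0 of the 10 were among them. The difference left was between 25.0% of the original for Mafg and 98.4% for Jun. Fosb kept -1.43 ± 0.39 (SE), Fosl1 -1.18 ± 0.39, Maff -0.95 ± 0.18, Fos -0.87 ± 0.31 and Jun -0.74 ± 0.27. Junb was left at -0.29 ± 0.47, which includes 0. Since the numbers of the groups differ, this fit splits between number and genotype a difference that the design does not hold apart.

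**Figure D3:**
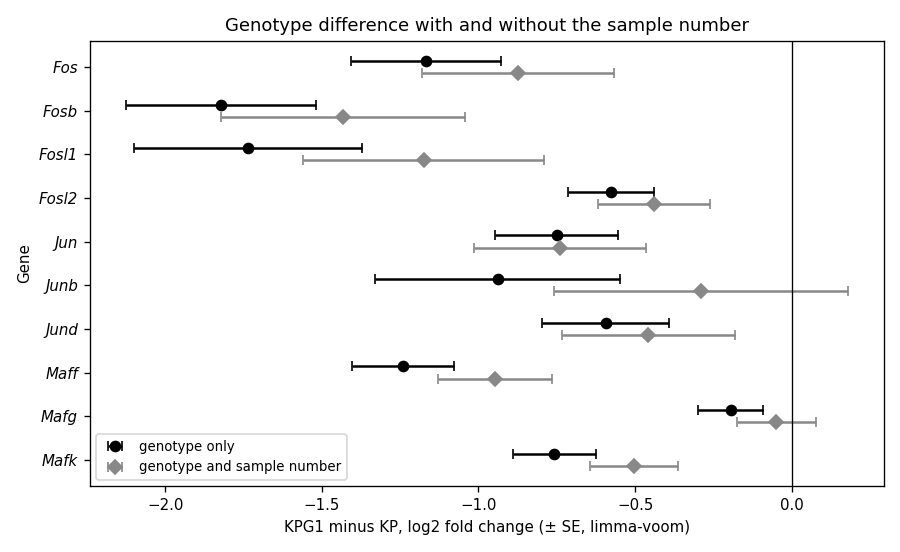
Log2 fold change of each gene, KPG1 minus KP, with its SE (bars) from limma-voom, with genotype as the only term (black circles) and with the sample number added (grey diamonds). All 20 points lie below 0, the bars of Junb and Mafg reach 0 once the number is added, and Jun hardly moves.

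Across tumours, with each group centred on its mean, the 10 genes formed 45 pairs, of which 40 had a Pearson r above 0 and 21 above 0.5, with a median of 0.475. The points are the same 10 libraries throughout and share their depth and normalization, so these values are a description. Such values were not rare. For Junb, the r of 0.660 with Jun ranked 1577 among 12876 genes, and for Jun the same r ranked 422. The share of all gene pairs with r above 0.5 was not measured. Junb and Jund were the most alike, at 0.909, followed by Fos and Fosb at 0.893, Fosl1 and Maff at 0.847, and Jun and Jund at 0.843. Fosl2 was the odd one, with r below 0 for Fosl1, Jun, Junb and Jund and a lowest value of -0.271 with Fosl1.

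**Figure D4:**
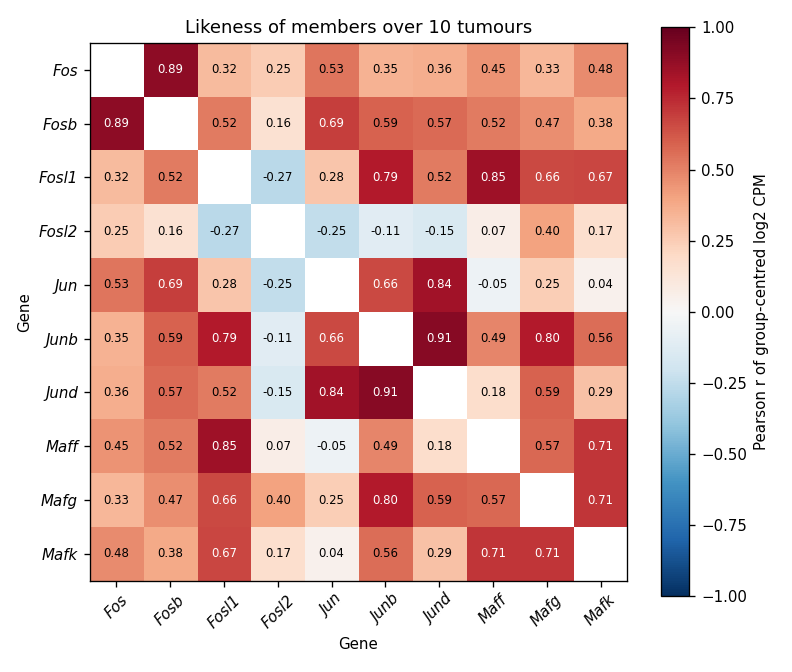
Pearson r of log2 CPM between each pair of the 10 genes over 10 tumours, each group centred on its own mean, on a colour scale from -1 (blue) to 1 (red). Fos with Fosb, and Junb with Jund, form the darkest cells, and Fosl2 is pale or blue against most of the others.

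Among the 12876 genes whose mean log2 CPM was 1 or more, the gene most like Fos in this measure was 2900005J15Rik, at 0.937, and Fosb ranked 7. The others among the first 10 outside the described genes were Zfp3, Tcta, Gm10167, Msl3l2, Zc2hc1c, Churc1, Insig1, Leng8 and 4930556M19Rik, from 0.933 down to 0.853. Zc2hc1c, at 0.904, lies 174.5 kb from Fos on chromosome 12, and was also among the 3 genes most like Fosb, with Gm26671 and Arrdc3. Fosl1 was followed most closely by Slc18a1 at 0.985, Junb by Angel1 at 0.979, Jund by Adamts7 at 0.988, Jun by Klhl7 at 0.934 and Fosl2 by Ifi30 at 0.940. For the small Mafs the first genes were Sf1 for Maff at 0.954, Fabp4 for Mafg at 0.975 and Sod3 for Mafk at 0.944. The rankings rest on the same 10 tumours and have no test.

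Other genes of the pathway were taken from lists that were not picked for how they moved, although earlier results of these data were known. Of 8 other partners of AP-1 dimers tested, 6 were lower in KPG1 and 0 were called, and the median log2 fold change was -0.60. An unadjusted p under 0.05 in limma was reached by 3, all lower, beside 6.31% of all genes in that direction. These were Atf3, Ddit3 and Creb5, the last at -1.16 ± 0.34 (SE) and named after its values were seen. Atf3, a stress-induced partner and repressor, had -2.01 ± 0.56 (SE) with an adjusted p of 0.222 in limma, and with the number in the model -0.63 ± 0.46. Its slope over the number, 0.23 ± 0.050 log2 units, had an adjusted p of 0.331. Atf2 was 0.21 higher in KPG1 and Ddit3 0.61 lower on the log2 scale, neither called.

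No partner or regulator of the small Mafs was called. Of 7 CNC, Bach and Keap1 genes 3 were lower and 0 called, with a median of 0.06, including -0.03 for Nfe2l2, which encodes NRF2, 0.10 for Nfe2l1 and -0.31 for Bach1. Among 18 targets of NRF2 and the small Mafs 13 were lower, 5 of them at an unadjusted p under 0.05 beside 6.31% of all genes, 0 were called and the median was -0.33, with -0.59 for Ftl1, -0.61 for Gstm1 and -0.10 for Fth1.

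Upstream of AP-1, the 16 MAP kinase genes had a median log2 fold change of -0.03, with 9 lower and 0 called. Mapk3, which encodes ERK1, stood at -0.28, and Rps6ka3, a kinase downstream of it, at 0.39. The 8 genes of serum response factor, its ternary complex partners and other activators of Fos had a median of -0.02, with 4 lower, 0 called and -0.15 for Mef2d. The pair with an unadjusted p under 0.05, named after their values were seen, were Srf itself at -0.998 ± 0.44 (SE) and Creb1, which encodes a cyclic AMP-responsive activator, at 0.50 ± 0.15. The slope of Srf over the sample number was 0.16 log2 units, with an unadjusted p under 0.05 and not called after adjustment in limma. RNA levels do not report the activity of these kinases and factors.

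Most other immediate-early genes were lower in KPG1. Of 23 tested 22 had a lower mean in KPG1, 18 had an unadjusted p under 0.05 in that direction, beside 6.31% of all genes, and the median was -1.16. Klf4, a zinc-finger factor, and Ier3, an early stress-response gene, were called, at -1.39 ± 0.22 (SE) with an adjusted p of 0.038 and -1.07 ± 0.15 with an adjusted p of 0.024 in limma. Egr1, a zinc-finger factor induced together with Fos, had -1.07 ± 0.18 with an adjusted p of 0.0501, and Zfp36, which encodes an RNA-decay factor that acts on short-lived transcripts, -1.64 ± 0.44 with 0.196. Over the sample number 19 of the 23 slopes were above 0 and 14 had an unadjusted p under 0.05 in that direction, beside 5.37% of all genes, with a median slope of 0.10 log2 units per number and 0 called. With the number in the model their median genotype difference was -0.52, against -0.62 for the 10 AP-1 and small Maf genes. The 4 slopes below 0 were those of Klf4 at -0.00056, Egr1 at -0.04, Nr4a3 at -0.12 and Nr4a2 at -0.09 per number, of which Nr4a3 and Nr4a2, named after their values were seen, had an unadjusted p under 0.05.

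Heat shock genes, which are also induced while tissue is dissociated, had a median log2 fold change of -0.12 over 14 genes, with 10 lower and 0 called. The most abundant, Hsp90ab1, Hspa8 and Hspa5, stood at -0.09, -0.22 and -0.07. An unadjusted p under 0.05 was reached by 2, named after their values were seen, Dnajb1 at -1.02 ± 0.41 (SE) and Hspb1 at -0.96 ± 0.35, and their slopes over the number were 0.14 and 0.13 log2 units. Their median slope over the number was 0.02 log2 units, and 4 of 14 had an unadjusted p under 0.05 with a slope above 0. The part of tissue handling in the differences of the 10 genes was not tested.

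Of 21 genes reported as AP-1 targets 17 were lower in KPG1, beside 47.3% of all genes, and 8 had an unadjusted p under 0.05 in that direction, beside 6.31%. The median was -0.47. Areg, which encodes the epidermal growth factor receptor ligand amphiregulin, was the 1 called, beside 0.111% of all genes called lower, at -0.84 ± 0.13 (SE) with an adjusted p of 0.031 in limma. Spp1, which encodes osteopontin, stood at -0.90, Vegfa at -0.35 and Ccnd1 at 0.11, none of them called.

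**Figure D5:**
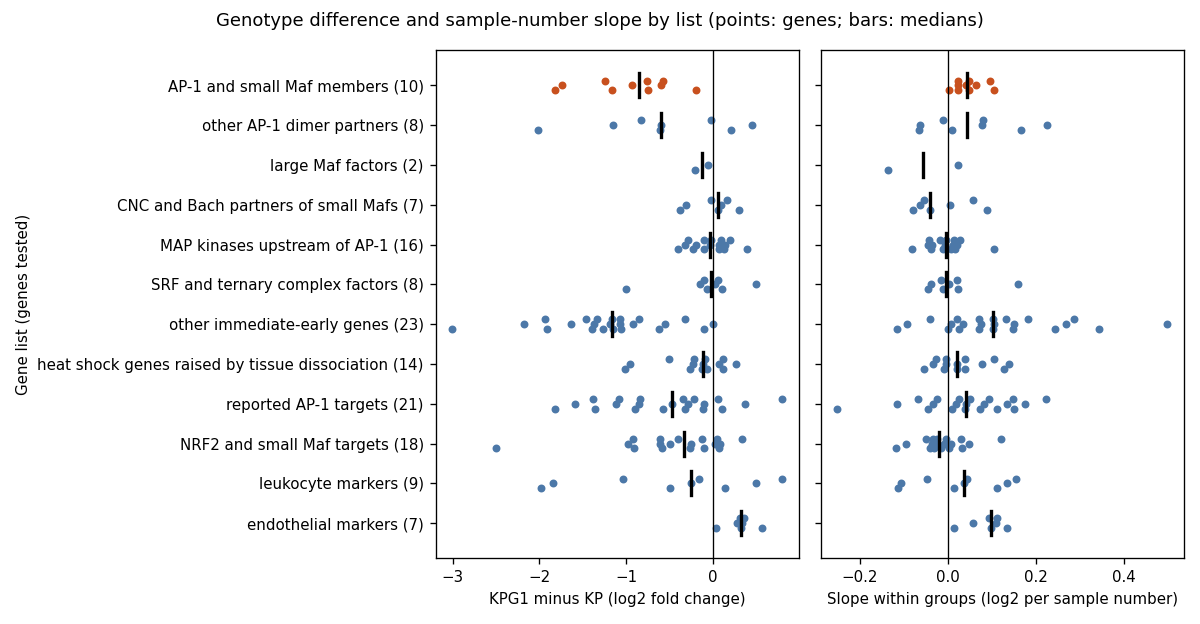
Log2 fold change, KPG1 minus KP (left), and slope over the sample number within groups in log2 units per number (right), for the 10 genes and the listed groups, with a point for each gene tested and a bar at each median. The AP-1 and small Maf genes (median -0.85) and the other immediate-early genes (median -1.16) lie left of 0, while the upstream kinases and serum response factors centre near 0.

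The marker genes of other cells moved beside these results as follows. All 8 alveolar type 2 markers had a higher mean in KPG1 (median log2 fold change 0.45), and 0 were called. So had all 7 endothelial markers (median 0.33) and all 8 fibroblast and smooth muscle markers (median 0.40), with 0 called in either. In these lists Sftpc at 1.22 ± 0.40 (SE), Abca3 at 0.97 ± 0.36 and Dcn at 0.75 ± 0.32 had an unadjusted p under 0.05 in limma. Abca3 and Dcn were named after their values were seen. In either direction, 1877 of all 16216 genes had such a p. Of all genes tested, 47.3% had a fitted log2 fold change below 0. Of 9 leukocyte markers tested 6 were lower, with a median of -0.26 and 0 called, while Ly6g, a neutrophil marker, held at most 2 counts in a library. The 3 leukocyte markers with an unadjusted p under 0.05, named after their values were seen, were all lower in KPG1. S100a9 and S100a8, abundant in neutrophils, stood at -1.98 ± 0.46 (SE) and -1.84 ± 0.50, and Itgam, a myeloid integrin, at -1.04 ± 0.33. S100a8 and S100a9 also had slopes over the sample number of 0.16 and 0.13 log2 units, with an unadjusted p under 0.05. Over the sample number, the endothelial markers had a median slope of 0.10 log2 units per number. It was above 0 for 7 of 7, beside 48.6% of all genes. An unadjusted p under 0.05 was reached by 5, beside 5.37% of all genes in that direction. The lowest endothelial sum, 280 CPM, was in KP 5 with the lowest KP number. The highest, 1313 CPM, was in KPG1 1 with the highest KPG1 number. KP 1 had the lowest alveolar type 2 sum of all 10 tumours, 17678 CPM, and was among the 3 tumours with the highest values of the 10 genes. The part of cell make-up in the differences of the 10 genes was not tested.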

How the data were processed

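The 10 genes and all gene lists were chosen with earlier results of these data known. Libraries were made from polyadenylated RNA with a stranded kit and sequenced from one end. Per the labels and the study's methods, the authors trimmed reads with cutadapt (1.4.2 in the submitters' processing notes), aligned them to mm10 with HISAT2 and counted them with featureCounts 1.4.4. The annotation release is not given in the sources used here. The authors deposited counts per gene, whole and not normalized, as a table of all libraries and singly, and the 390170 values were the same in both. The authors also deposited a log2 table made with TMM factors and voom, used here only as an alternative.

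Low counts were filtered with filterByExpr (edgeR 4.0.16), in place of the study's filter on TPM, and genes were fitted with TMM, voom and limma 3.58.1 in R 4.3.3, with Benjamini-Hochberg adjustment over 16216 genes and a threshold of 0.05. Levels are log2 CPM with a prior count of 2. The model held the genotype alone, or the genotype and the sample number. Positions and exon lengths came from GENCODE on mm10. Alternatives were edgeR's quasi-likelihood test, DESeq2 1.42.0, library sizes without TMM, no filter, a mean CPM of at least 20, a weight per library, a replicate block, numbers from 9 only and leaving out each library.

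On simulated counts for 16216 genes with 200 changed, limma-voom recovered 92.5% of genes changed by 2 log2 units between the genotypes, with 11 false calls. It recovered 76% of genes changed by 0.2 log2 units per sample number, with 13 false calls. Among the 10 genes the steepest slope was 0.10 log2 units per number (Junb) and the largest genotype difference was -1.82 (Fosb). Recovery at these smaller sizes was not tested. Depth, from 32427029 to 49534284 counts per library, gave at least 243 counts to each of the 10 genes in each library. Named genes were the 10, Slc2a1, the 3 most abundant genes and every gene called in each list, and the genes with the highest Pearson r, 10 for Fos and 3 for each other, of which the first is printed for most. Some genes that this rule names are not reported here.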

Additional observations from a re-analysis of the deposited data

Results flagged for a closer look

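Fosl1 in KP 5 stood at 3.54 log2 CPM, while the nearest KP tumour stood at 4.82, a gap of 0.759 of the range of the group against a limit of 0.71 for 5 tumours. It was the 1 such case among 22 groups searched, in which chance gives about 1.1. KP 5 carries number 6, and it was also the lowest KP tumour for 6 of the other 9 genes.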

How the results depend on the processing

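The genotype differences of the 10 genes stayed below 0 under up to 20 alternatives a gene, 199 values in all, and 4 moved by more than the spread between tumours: Maff to -0.95, Mafg to -0.05 and Mafk to -0.50 with the sample number as covariate, and Fos to -0.66 with numbers from 9 only. Counts of calls were not stable. Of 16216 genes tested, the count called for KPG1 against KP was 28 in limma, 40 with edgeR, 27 without TMM and 548 with DESeq2. It was 228 with a weight per library, 8 with the sample number, 6 with numbers from 9 only, and between 5 and 250 without 1 library. With no filter it was 43 of 26233 genes. Of the 10 genes the count called, 2 in limma, was 8 with DESeq2, 9 with a weight per library, 3 with edgeR, 1 without TMM, 0 with the sample number and 0 with numbers from 9 only, and between 0 and 5 without 1 library. The 5 came without KP 5, and were Fosb, Fosl1, Junb, Maff and Mafk, while leaving out KP 1, 3 or 4 or KPG1 2, 3 or 4 gave 0. The groups of 8 genes in place of 5 did not overlap without KP 5. With a mean CPM of at least 20, Fosl1 was not tested.

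Slopes over the number reversed for Jun, to -0.0075 with a weight per library, -0.027 without KP 5, -0.0074 without KPG1 2 and -0.00035 without KPG1 4, and for Junb (-0.0027) and Jund (-0.029) without KP 5. Without 1 library their slopes ran from -0.027 to 0.025 for Jun, from -0.0027 to 0.139 for Junb and from -0.029 to 0.046 for Jund. The other 163 of 169 kept their sign, and none passed. For the number, DESeq2 called 135 genes where limma called 0, and 0 of the 10. On the simulated counts DESeq2 made 43 false calls for genotype and 59 for number.

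No pairing by replicate number was seen, since same-numbered tumours deviated together with r from -0.161 to 0.0760 and 1 of 5 matched its own number best. Whether tumours shared a day or batch was not tested. With a replicate block, 5 genes and 0 of the 10 were called. The result for Slc2a1 kept its direction and threshold throughout. Each of the 10 genes held at least 243 counts in each library. The causes were not tested.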
